A study of Mus musculus with 16 samples.

Results

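The transcripts described here encode the laminins and the other non-collagen proteins of the basement membrane in the mouse left ventricle. The set holds 10 genes, taken by name from the 53764 genes of the count table: the laminin alpha chains Lama2, Lama4 and Lama5, the beta chains Lamb1 and Lamb2, the gamma chain Lamc1, the nidogens Nid1 and Nid2, and the heparan sulfate proteoglycans Hspg2 (perlecan) and Agrn (agrin). The basement membrane is a thin sheet of extracellular matrix that surrounds each cardiac muscle cell and underlies the endothelium of every vessel. Each laminin is a trimer of an alpha, a beta and a gamma chain, which assembles into a network on the cell surface and binds integrins and dystroglycan there. Nidogens and perlecan join that network to the type IV collagen network of the same sheet, and agrin links laminin to dystroglycan.

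The study asked how ertugliflozin, which blocks the SGLT2 transporter of the kidney, changes the heart with and without diet-induced diabetes. Male C57BL/6J mice, aged 8 weeks at the start, ate a low-fat control diet (CD) or a diet high in fat and sucrose (HFHS) for 4 months. The drug was either absent or mixed into the food at 0.5 mg per g, which gave 4 groups: CD untreated, CD ertugliflozin, HFHS untreated and HFHS ertugliflozin. RNA from the left ventricle of 4 animals per group was sequenced after poly(A) selection; these 16 animals were picked by the submitters as representative of a larger number, so the spread between libraries is that between the picked animals.

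Library totals ran from 14637669 to 21452212 counts. All 10 genes passed the filter on low counts that 15841 genes passed, with 451 (Nid2) to 20777 (Hspg2) counts per library. Markers of ventricular cardiomyocytes were present in every library, 12 of 12, with summed levels of 99280 to 123500 CPM (counts scaled to library size). Markers of heart valve and of atrium were low and uneven. The 12 valve markers summed to 336 and 287 CPM in CD untreated replicates 2 and 3 and to between 34.1 and 116 CPM in the other libraries, and the 12 atrial markers reached 1129 CPM in CD untreated replicate 1 against 149 to 404 CPM elsewhere. Calls that ended when any of these 3 libraries was left out are named beside the results.

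Scaled by annotated exon length, so that genes can be set against each other, Lamb2 had the highest level of the 10 transcripts, with a mean of 78.7 CPM per kb over the 16 libraries. Perlecan followed at 57.8, then Lamc1 at 36.3 and Nid1 at 30.4 CPM per kb. The alpha chains were lower, with Lama5 at 18.8, Lama2 at 12.3 and Lama4 at 11.6 CPM per kb. Lamb1 stood at 18.1, Agrn at 11.1 and Nid2, the lowest, at 6.12 CPM per kb. Some neighbours in this order did not differ beyond their spread. Among untreated CD hearts Lama5 (18.5 ± 3.56 CPM per kb, SD, n = 4) and Lamb1 (16.6 ± 2.06) lay within 1 SD of each other, as did Lama2 (11.5 ± 0.788), Agrn (11.1 ± 0.363) and Lama4 (10.6 ± 1.14). In untreated HFHS hearts the order of Lama5 (17.8 ± 2.97 CPM per kb) and Lamb1 (20.9 ± 1.4) was the opposite one. Of the beta chains the mean level of Lamb2 per kb exceeded that of Lamb1 in each of the 4 groups.

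**Figure D1:**
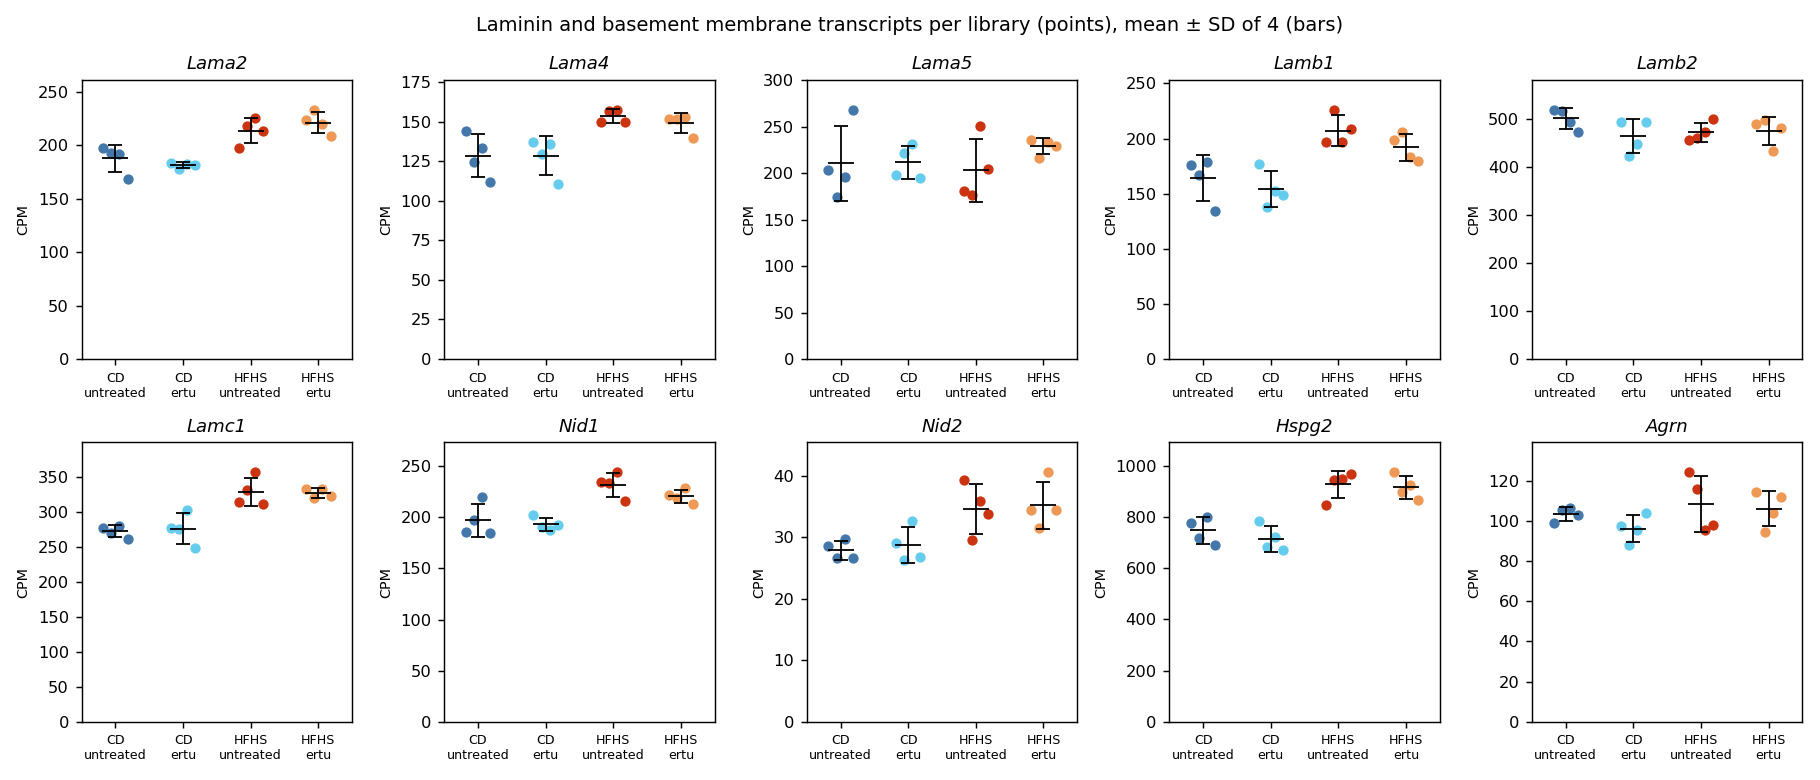
Each panel shows 1 gene in CPM (vertical axis, from 0) for the 4 groups, with a point per library and bars for the mean ± SD of 4 libraries. For Lamb1, Lamc1 and Hspg2 every HFHS point lies above every CD point, as for 0.96% of all genes tested. The diets overlap for Lama2, Lama4, Nid1 and Nid2, and more widely for Lama5, Lamb2 and Agrn.

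The HFHS diet went with higher levels of most of these transcripts. Averaged over untreated and drug-treated animals, 7 of the 10 genes were higher on HFHS and none was lower, by edgeR's quasi-likelihood test with Benjamini-Hochberg adjustment over all 15841 genes at a threshold of 0.05. Of all genes tested 11.6% passed in this comparison, 6.59% as higher and 5.01% as lower. The rises were moderate, from 1.16-fold for Nid1 to 1.26-fold for perlecan. The median log2 fold change of the 10 genes was 0.24, against -0.0076 for all genes. Lama5, Lamb2 and Agrn did not pass. RNA was measured in whole ventricle, in which more cells of a type and more RNA per cell cannot be told apart.

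Among the alpha chains, Lama2 and Lama4 rose with the diet and Lama5 did not pass the test. Lama2 (chr10:26980036-27619758 on GRCm38, minus strand) encodes the alpha chain typical of muscle basement membranes, whose loss causes a congenital muscular dystrophy. Its level was 198, 193, 192 and 169 CPM in the 4 CD untreated hearts and 184, 178, 182 and 182 CPM in the 4 CD ertugliflozin hearts. The HFHS untreated hearts had 197, 218, 226 and 214 CPM and the HFHS ertugliflozin hearts 223, 233, 219.8 and 208 CPM. Only HFHS untreated replicate 1 fell inside the CD range, just under the highest CD library. The averaged log2 fold change was 0.24 ± 0.038 (SE, adjusted p = 0.000617).

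Lama4 (chr10:38965515-39110188, plus strand) encodes an alpha chain found around blood vessels and cardiomyocytes. On CD it was measured at 144, 124, 133 and 112 CPM without drug and 137, 129.5, 136 and 110.5 CPM with it. On HFHS the values were 149.6, 157, 158 and 149.8 CPM without drug and 152, 152, 153 and 139.5 CPM with it. The diets overlapped by a single library on each side, CD untreated replicate 1 and HFHS ertugliflozin replicate 4. Replicate 4 was the lowest library in both CD groups. The averaged change was 0.24 ± 0.051 (SE, edgeR adjusted p = 0.00521).

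Lama5 (chr2:180176373-180225859, minus strand), the alpha chain of epithelial and mature endothelial basement membranes, was the most variable of the 10 genes within the untreated groups. Its coefficient of variation reached 19.2% among CD untreated hearts and 16.7% among HFHS untreated hearts. Levels ran from 174 to 268 CPM on CD (median 201) and from 177 to 250.4 CPM on HFHS (median 223). The highest library of all, CD untreated replicate 4, was also the lowest of its group for each of the other 9 genes except Agrn. Across diets the averaged log2 fold change was 0.030 with a 95% interval of -0.15 to 0.22 (edgeR adjusted p = 0.867). The interval includes a change of the size found for Nid1.

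The beta chains differed from each other. Lamb1 (chr12:31265234-31329644, plus strand), the beta chain of many embryonic and adult laminins, was higher on HFHS, and Lamb2 (chr9:108479736-108490530, plus strand), the beta chain concentrated at neuromuscular junctions, arteries and the kidney glomerulus, was not. Lamb1 was present at 176, 167, 179 and 134 CPM in CD untreated and 177, 138, 152 and 149 CPM in CD ertugliflozin hearts. It reached 197, 226, 197 and 209 CPM in HFHS untreated and 198, 206, 183 and 179.8 CPM in HFHS ertugliflozin hearts. All 8 HFHS libraries exceeded all 8 CD libraries, a separation that 0.96% of all genes showed in that direction, and the log2 fold change was 0.33 ± 0.061 (SE, edgeR adjusted p = 0.00226).

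Lamb2 counts gave 519.8, 518, 495 and 474 CPM in CD untreated hearts and 494, 423, 447 and 494 CPM in CD ertugliflozin hearts. On HFHS they gave 456, 460.1, 474 and 500.3 CPM without drug and 489.6, 498, 433 and 481 CPM with drug. The diets overlapped over most of their ranges. The averaged difference was -0.026 on the log2 scale, with a 95% interval of -0.11 to 0.062 and an edgeR adjusted p of 0.737. Since that interval ends at 0.062, it does not reach the rise of any of the 7 genes that passed.

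The start-site sequences of the beta chains, the pair of members with the clearest difference in response, are shown side by side (RefSeq starts, build GRCm38.p6, 5′ to 3′ on the gene's strand). Each runs from 250 bases before the RefSeq start to the first base before GENCODE's own first exon, chr12:31265043-31265233 for Lamb1 and chr9:108479612-108479735 for Lamb2, both on the plus strand. Capitals mark each GC box, GGGCGG on either strand, the core of Sp-family binding sites.
Lamb1: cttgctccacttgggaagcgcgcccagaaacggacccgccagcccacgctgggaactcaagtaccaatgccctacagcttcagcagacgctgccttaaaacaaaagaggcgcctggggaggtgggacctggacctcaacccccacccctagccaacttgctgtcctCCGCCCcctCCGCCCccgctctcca
Lamb2: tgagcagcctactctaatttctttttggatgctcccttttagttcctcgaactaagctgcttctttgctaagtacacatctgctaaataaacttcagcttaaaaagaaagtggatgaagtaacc
The Lamb1 stretch holds 2 GC boxes near its end and the Lamb2 stretch holds 0. In the full windows of 250 bases GC content was 62% for Lamb1 and 43.6% for Lamb2. Among 32851 RefSeq promoter windows of that length 32.7% held at least 1 GC box.

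Lamc1 (chr1:153218922-153332786, minus strand) encodes the gamma chain shared by nearly all laminins of muscle and vessels, and it rose with the diet. The CD untreated hearts had 277, 269, 280.1 and 261 CPM and the CD ertugliflozin hearts 276, 276, 302 and 248 CPM. Under HFHS the level was 314, 331, 356 and 311 CPM without drug and 332, 319, 333 and 322 CPM with drug. The 2 diets did not overlap in any library, a separation that 0.96% of all genes showed in that direction. At 0.26 ± 0.040 on the log2 scale (SE, edgeR adjusted p = 0.000426), the gamma chain changed by about as much as Lama2 and Lama4.

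Both nidogens, the connectors between the laminin and collagen networks, were higher on HFHS. Nid1 (chr13:13437551-13512269, plus strand) was counted at 186, 197, 220 and 185 CPM in CD untreated and 202, 191, 188 and 193 CPM in CD ertugliflozin hearts. Its levels were 234, 234, 244 and 216 CPM in HFHS untreated and 222, 219, 228 and 213 CPM in HFHS ertugliflozin hearts. CD untreated replicate 3, a library with high valve markers, was the only CD library that reached into the HFHS range. The averaged change was 0.21 ± 0.039 (SE, edgeR adjusted p = 0.00167) and became 0.26 (adjusted p = 0.000765) without replicates 2 and 3 of that group.

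Nid2 (chr14:19751265-19811787, plus strand) had the lowest level of the 10. It stood at 28.6, 26.7, 29.8 and 26.6 CPM in CD untreated and 29.1, 26.4, 32.7 and 26.8 CPM in CD ertugliflozin hearts. In HFHS untreated hearts it stood at 39.3, 29.6, 36 and 33.8 CPM, and in HFHS ertugliflozin hearts at 34.5, 31.5, 40.6 and 34.4 CPM. The diets overlapped, with 6 of 8 HFHS libraries above the highest CD library. Nid2 changed by 0.30 ± 0.064 on the log2 scale (SE, edgeR adjusted p = 0.00501). Its locus overlaps the protein-coding gene Rtraf (mean 47.6 CPM) on the opposite strand; the strand setting of the authors' counting is not given in the sources used here, so reads of the 2 genes may not be fully separated.

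Of the proteoglycans, perlecan rose and agrin did not pass. Hspg2 (chr4:137468769-137570630, plus strand) encodes perlecan, which carries heparan sulfate chains, stores growth factors and binds nidogens and dystroglycan. The CD untreated hearts measured 778, 719, 802 and 692 CPM and the CD ertugliflozin hearts 784, 684, 723 and 672 CPM. The HFHS untreated hearts measured 847, 947, 947 and 969 CPM and the HFHS ertugliflozin hearts 974.9, 898, 925 and 866 CPM. The lowest HFHS library lay above the highest CD library, as for 0.96% of all genes. The log2 fold change was 0.33 ± 0.044 (SE, edgeR adjusted p = 0.000105).

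Agrn (chr4:156165290-156197488, minus strand) encodes agrin, the organiser of acetylcholine receptors at the neuromuscular junction, which binds laminin and dystroglycan also in heart muscle. Its levels ran from 87.8 to 106 CPM on CD (median 101) and from 94.4 to 124 CPM on HFHS (median 108). Within HFHS untreated hearts replicates 1 and 2 were high (124, 116, 95.2 and 98.1 CPM for replicates 1 to 4). The averaged change was 0.11 on the log2 scale, with a 95% interval of -0.010 to 0.22 and an edgeR adjusted p of 0.234.

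The sequences before the starts of the 2 proteoglycan genes are printed in the same way (chr4:137468553-137468768, plus strand, and chr4:156197489-156197738, minus strand), because here too 1 gene of the pair rose and the other did not pass.
Hspg2: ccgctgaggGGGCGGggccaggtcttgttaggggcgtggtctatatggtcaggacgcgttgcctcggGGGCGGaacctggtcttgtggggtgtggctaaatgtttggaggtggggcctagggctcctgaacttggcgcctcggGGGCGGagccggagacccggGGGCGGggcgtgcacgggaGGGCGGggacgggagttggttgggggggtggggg
Agrn: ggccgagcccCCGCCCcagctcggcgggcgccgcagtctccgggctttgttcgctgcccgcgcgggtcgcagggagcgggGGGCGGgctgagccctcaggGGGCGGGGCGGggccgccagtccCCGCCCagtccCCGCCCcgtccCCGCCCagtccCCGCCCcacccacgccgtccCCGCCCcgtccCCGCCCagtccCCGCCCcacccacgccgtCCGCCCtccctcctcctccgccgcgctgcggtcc
Counting overlapping matches, the Agrn stretch holds 12 GC boxes and the Hspg2 stretch 5. Entries were found for 7 of the 10 genes; of the others among these, Lama5 had 4 GC boxes in 250 bases, Nid1 had 1 and Lama2 had 0. The Lama2 window precedes a RefSeq start that lies 2816 bases inside the GENCODE gene. Agrn has a further RefSeq start inside the gene, at base 156186259 of chromosome 4, with 2 GC boxes in the 250 bases before it. The AP-1 motif TGANTCA, searched on both strands, was in 0 of the 8 windows of these 7 genes and in 6.75% of all promoter windows. GC boxes were present before genes that rose and before genes that did not pass. Any part of these motifs in the diet response was not tested.

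Ratios between related chains in the same library give the balance of the members apart from a factor common to both. They are ratios of CPM without length scaling and are compared only between libraries. Lamb2/Lamb1 was 2.95, 3.1, 2.77 and 3.52 in CD untreated and 2.79, 3.07, 2.94 and 3.32 in CD ertugliflozin hearts. It was 2.32, 2.03, 2.4 and 2.4 in HFHS untreated and 2.47, 2.41, 2.36 and 2.68 in HFHS ertugliflozin hearts. Every HFHS library lay below every CD library. The diet difference was -0.36 on the log2 scale, a 0.78-fold ratio, with p = 0.000408 in a two-sided exact permutation test that exchanged diets within each drug arm. This is the smallest p that its 4900 arrangements can give. Adjusted over the 10 ratio tests it was 0.00408.

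The ratio of agrin to perlecan ran from 0.124 to 0.155 on CD and from 0.101 to 0.146 on HFHS. Its log2 difference of -0.23 did not pass after adjustment (exact permutation p = 0.0151, adjusted p = 0.0755). The adjusted p was 0.00816 without HFHS untreated replicate 1, whose ratio of 0.146 was the highest on HFHS, and 0.0388 without HFHS ertugliflozin replicate 4. Lama5/Lama4 differed by -0.21 (exact permutation p = 0.0669, adjusted p = 0.223). Nid2/Nid1 differed by 0.085 (adjusted p = 0.497 by the same exact permutation test). The ratio Lama2/Lama4 had nearly the same mean on both diets, a log2 difference of -0.0044 (exact permutation p = 0.928).

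**Figure D2:**
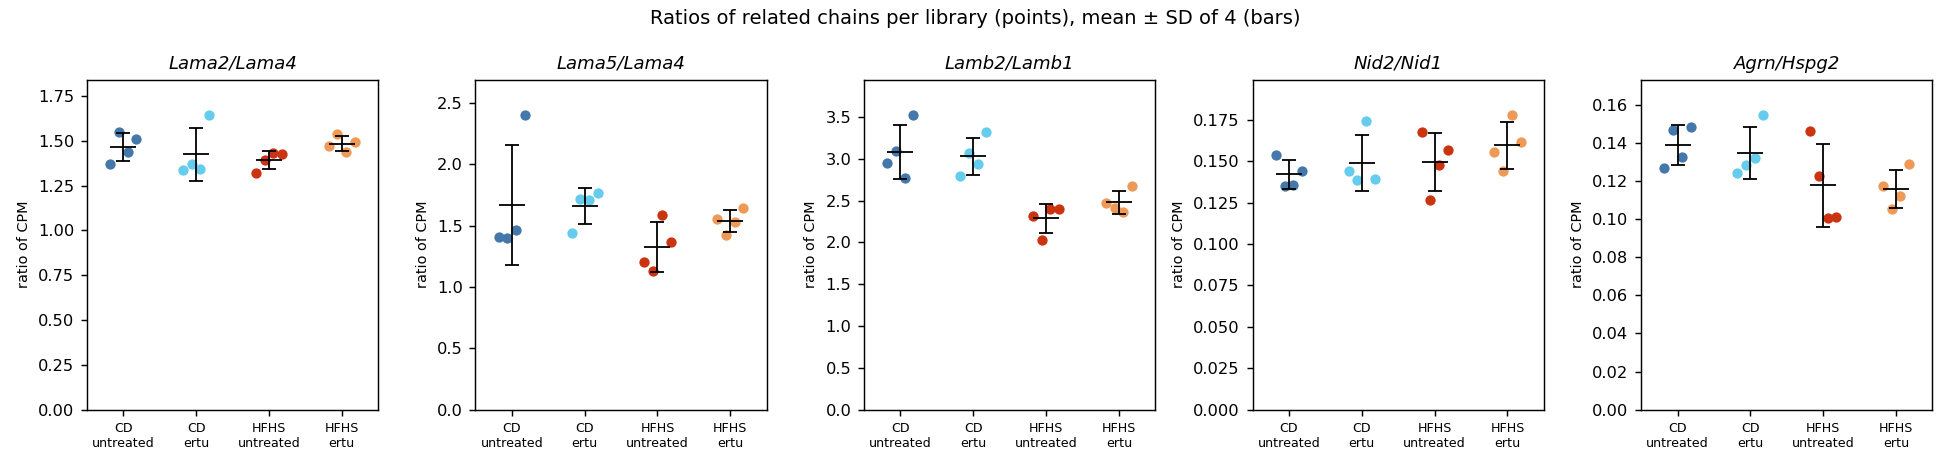
Each panel shows a ratio of 2 related transcripts, computed from the CPM values of the same library (vertical axis, from 0), with a point per library and bars for the mean ± SD of 4 libraries per group. The Lamb2/Lamb1 ratio is 2.77 to 3.52 on CD and 2.03 to 2.68 on HFHS; the other 4 ratios overlap between diets.

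Taken in the untreated animals alone, 3 of the 10 genes passed as higher on HFHS, where 2.06% of all genes passed, 1.45% as higher and 0.619% as lower. By edgeR they were perlecan with a log2 change of 0.31 ± 0.062 (SE, adjusted p = 0.0136), Lamc1 with 0.27 ± 0.057 (adjusted p = 0.0182) and Nid1 with 0.24 ± 0.055 (adjusted p = 0.0311). Lamb1 at 0.34, Nid2 at 0.31, Lama4 at 0.26 and Lama2 at 0.19 had edgeR adjusted p-values between 0.0515 and 0.0848. In the drug-treated animals 4 of the 10 passed as higher, where 3.69% of all genes passed, 2.15% as higher and 1.53% as lower. These were perlecan at 0.36 (adjusted p = 0.00316), Lama2 at 0.29 (0.00579), Lamc1 at 0.25 (0.0193) and Lamb1 at 0.32 (0.0483).

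Perlecan and Lamc1 thus passed in each drug arm. The comparisons contrast different libraries, but both came from 1 fit over all 16 libraries with a shared estimate of the spread. They are therefore not independent tests. In fits of only the groups compared both genes passed with drug and neither passed without it. Lama4, Nid1 and Nid2 had log2 fold changes of 0.22, 0.19 and 0.29 in the drug-treated animals without passing. Lama5 was at -0.052 without and 0.11 with drug, Lamb2 at -0.086 and 0.033, and Agrn at 0.069 and 0.14. The interaction, which tests whether the diet effect differed between drug arms, passed for 0 of the 10 genes, and 0 had an unadjusted p under 0.05 in edgeR. Of all genes 0.0189% passed the interaction, 3 with edgeR and 18 with DESeq2.

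**Figure D3:**
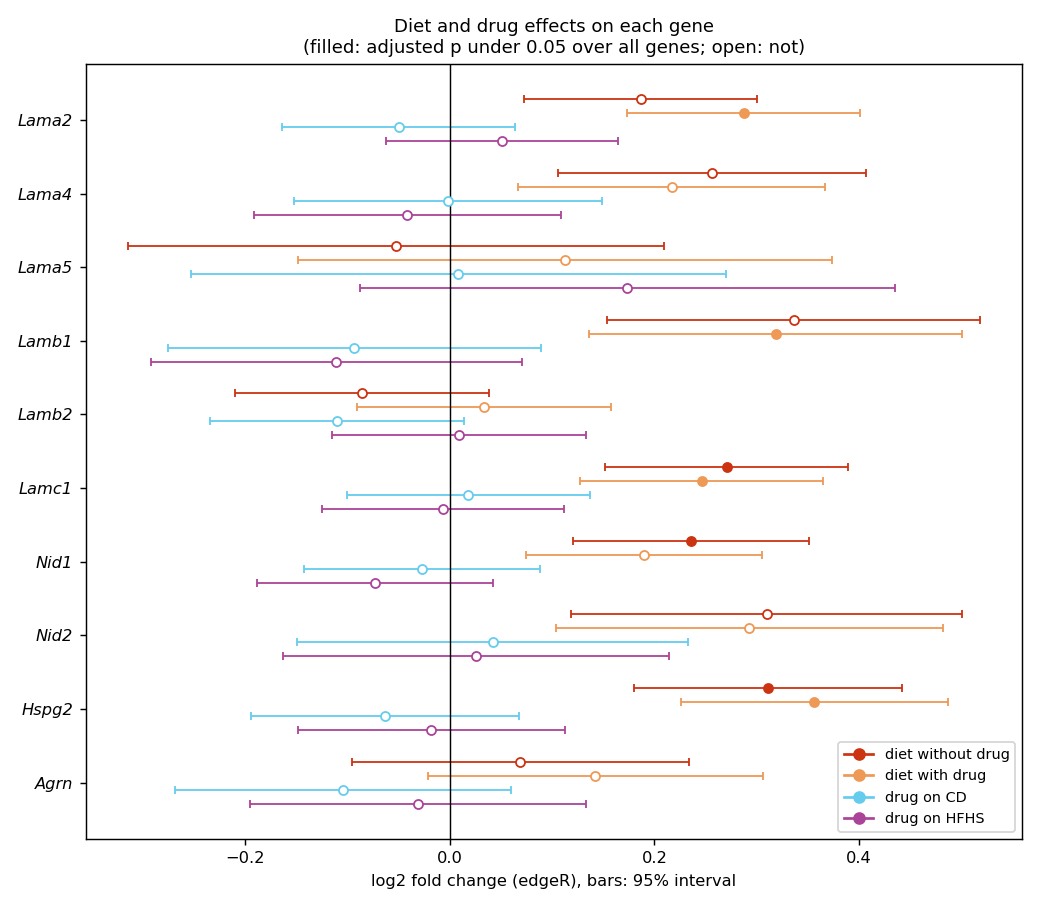
For each gene the points give edgeR log2 fold changes (horizontal axis) with 95% intervals for the diet effect in untreated and in drug-treated animals and for the drug effect on each diet; filled points have an adjusted p under 0.05 over all genes. Filled points appear for the diet only, and every drug interval includes 0.

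The calls in a single drug arm rested on few libraries. Without CD untreated replicate 2 none of the 10 genes passed in the untreated animals; perlecan was then at 0.29 (edgeR adjusted p = 0.052), Lamc1 0.26 (0.0582) and Nid1 0.23 (0.0821). Without HFHS untreated replicate 2 the Lamc1 value was 0.27 (0.0564) and the Nid1 value 0.23 (0.0811), and without replicate 3 of that group they were 0.23 (0.0573) and 0.21 (0.0901). The Nid1 call also ended without CD untreated replicate 1 (adjusted p = 0.0906) or 4 (0.0746). It ended as well under the correction for length and GC content described further on, where Nid1 was at 0.20 (adjusted p = 0.0574) and 2 of the 10 genes passed. With CD untreated replicates 2 and 3, the libraries high in valve markers, left out together, Nid1 passed at 0.32 (adjusted p = 0.0246), while perlecan was at 0.34 (0.0591) and Lamc1 at 0.28 (0.0866). In fits of those 2 groups alone 0 of the 10 passed; DESeq2 called 7.

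In the drug-treated animals the Lamc1 call ended without CD ertugliflozin replicate 4 (adjusted p = 0.0531), HFHS ertugliflozin replicate 1 (0.0624) or HFHS ertugliflozin replicate 3 (0.0571). The Lamb1 call, which was close to the threshold, ended in 12 of the 16 fits that left out a library, all but those without CD untreated replicate 1 or 4, CD ertugliflozin replicate 1 or HFHS untreated replicate 2. Its log2 fold change stayed between 0.27 and 0.39 in those fits. The averaged diet effect did not depend on single libraries in this way. All 7 rises passed in each of the 16 fits that left out a library, and in the fit without CD untreated replicates 2 and 3, in which perlecan was at 0.35 (adjusted p = 0.000676) and Lama4 at 0.24 (adjusted p = 0.0198).

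None of the 10 transcripts passed the test for ertugliflozin. On CD 0 of 10 passed, and 0 had an unadjusted p under 0.05; 0.0189% of all genes passed, 3 by edgeR and 10 by DESeq2, with 978 at an unadjusted p under 0.05. The log2 fold changes ran from -0.11 for Lamb2 (95% interval -0.23 to 0.014) to 0.042 for Nid2 (-0.15 to 0.23). On HFHS they ran from -0.11 for Lamb1 (-0.29 to 0.071) to 0.17 for Lama5 (-0.088 to 0.44), and again 0 of 10 passed, with 0 below an unadjusted p of 0.05. There 0% of all genes passed by edgeR, with 637 at an unadjusted p under 0.05.

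Averaged over the diets the drug effect was -0.041 for perlecan (95% interval -0.13 to 0.052), 0.0058 for Lamc1 (-0.078 to 0.090) and 0.00051 for Lama2 (-0.080 to 0.081). Again 0 of 10 passed, against 0% of all genes with edgeR and 6 genes with DESeq2. For perlecan, Lamc1 and Lama2 both ends of the interval are closer to 0 than the diet effect on the same gene. For Lama5 the interval, -0.094 to 0.28, is wider and reaches past the averaged diet effects on Lamc1, Lama2, Lama4 and Nid1, though not those on perlecan, Lamb1 and Nid2. The 5 chain ratios gave adjusted p-values of 0.497 to 0.839 for the drug in exact permutation tests.

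The other components of the basement membrane and its receptors are given by lists of known members, with the diet effect averaged over drug arms. The type IV collagens form the second network of the sheet. Of the 8 basement membrane collagens 4 rose and 0 fell, with a median log2 fold change of 0.26: Col4a1 at 0.39 ± 0.078 (SE, edgeR adjusted p = 0.0048) and Col4a2 at 0.43 ± 0.067 (0.000578), the partners of the most widespread trimer, Col4a4 at 0.30 (0.0133), and Col15a1, a collagen at the outer face of muscle and capillary membranes, at 0.42 (0.0463). Col4a3 at 0.22, Col4a5 at 0.073, Col4a6 at -0.022 and Col18a1 at 0.058 did not pass.

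Other laminin chains were scarce. Lama1 had at most 2 counts in a library and was not tested. Lama3 (0.26, edgeR adjusted p = 0.0559), Lamb3 (-0.13) and Lamc3 (0.13) did not pass. The mean levels of these 3 were 0.234 to 2.32 CPM per kb, below that of Nid2.

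Of 20 other proteins of the sheet 5 rose and 1 fell, and the median was -0.063. Papln (papilin) rose by 0.56 (edgeR adjusted p = 3.88e-05), Hmcn2 (a hemicentin) by 0.40 (0.00452), Smoc2 by 0.38 (0.00393), Sparc, a collagen-binding glycoprotein, by 0.30 (0.0101) and Fbln2 (fibulin-2) by 0.28 (0.00143). Lad1, a component of epithelial anchoring filaments with a mean of 1.83 CPM, changed by -0.86 (0.012).

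Receptors for laminin had lower list medians than the collagens. Among 10 laminin-binding integrin subunits and related surface proteins 4 rose and 0 fell, with a median of 0.089. Itga6 and Itga7, the alpha subunits of laminin-binding integrins, rose by 0.29 (edgeR adjusted p = 0.00288) and 0.22 (0.00978), their partner Itgb1 by 0.16 (0.00223), and Bcam, a receptor of laminin chain alpha-5, by 0.15 (0.027). In the dystrophin-glycoprotein complex, which ties laminin to the cytoskeleton of muscle cells, 4 of 13 rose and 0 fell (median 0.10). Dag1, whose product dystroglycan binds laminin, perlecan and agrin, rose by 0.31 ± 0.049 (SE, adjusted p = 0.000465), Utrn (utrophin) by 0.25 (0.000572), Sntb2 by 0.17 (0.0328) and Dmd (dystrophin) by 0.16 (0.0218).

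The lists of genes for modification and turnover of the sheet had small medians, though single genes in them changed. Of 16 genes that glycosylate dystroglycan 1 passed, Pomgnt1 at 0.14 (edgeR adjusted p = 0.0301), and the median was -0.019. Of 11 genes for folding and cross-linking of collagen IV 1 passed, Pxdn at 0.24 (0.0222), with a median of 0.026; its product, peroxidasin, forms the bonds between collagen IV trimers. Of 17 proteases, heparanase and inhibitors Adamts5, a proteoglycan-cleaving protease, rose by 0.44 (0.000126), Ctsl (cathepsin L) changed by -0.22 (0.0127), and the median was 0.035. By count, 7 of 10 laminin and basement membrane genes and 4 of 8 basement membrane collagens passed as higher, against 6.59% of all genes. The 10 genes are long, and of the longest decile of genes by exon length 15.9% passed as higher. No test of these shares was made, and the members and this contrast were chosen with earlier results of these data known.

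Some of these averaged calls were fragile. Of 27 alternative fits, Col15a1 lost its call in 16, Sntb2 and Pomgnt1 in 9 each, Bcam in 8, Dmd in 3, and Col4a4, Hmcn2 and Pxdn in 2 each. Without Col15a1, 3 of 8 basement membrane collagens rose. Its call ended in 12 of the 16 fits that left out a library (edgeR adjusted p of 0.0609 to 0.0938), all but those without CD untreated replicate 3, CD ertugliflozin replicate 3 or HFHS untreated replicate 1 or 3. The call of Sntb2 ended without CD untreated replicate 4, CD ertugliflozin replicate 1 or 4, HFHS untreated replicate 2 or 4 or HFHS ertugliflozin replicate 1 or 3 (0.0566 to 0.0718). The call of Pomgnt1 ended without CD untreated replicate 1, CD ertugliflozin replicate 2 or 3, HFHS untreated replicate 2, 3 or 4 or HFHS ertugliflozin replicate 2 or 4 (0.0526 to 0.0628). For Bcam the libraries whose removal ended the call were HFHS ertugliflozin replicates 2 and 3, HFHS untreated replicates 2, 3 and 4, and CD untreated replicates 1 and 2 (0.0537 to 0.0596). With CD untreated replicates 2 and 3 left out together Bcam (0.0553), Dmd (0.0641) and Pxdn (0.0522) did not pass. The other averaged calls named from these lists held in all 27 fits.

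In untreated animals alone Col4a2 (0.44), Papln (0.49), Itga6 (0.40), Itgb1 (0.18), Dag1 (0.29), Utrn (0.25) and Adamts5 (0.48) passed as higher by edgeR, and Lad1 (-1.26) as lower. In drug-treated animals the genes of these lists that passed were Col4a2 (0.42), Col4a4 (0.45), Papln (0.64), Hmcn2 (0.56), Smoc2 (0.42), Fbln2 (0.39), Itga7 (0.27), Dag1 (0.34), Utrn (0.25) and Adamts5 (0.41), all as higher. Of the single-arm calls those of Papln and Itga6 without drug and of Papln, Fbln2, Dag1 and Adamts5 with drug held in every alternative fit. The others ended in 1 to 16 of 28 fits, from 1 for Adamts5 without drug to 12 for Itgb1 and Dag1 without drug and 16 for Itga7 with drug. With CD untreated replicates 2 and 3 left out together the calls without drug of Adamts5 (adjusted p = 0.0701), Col4a2 (0.0866), Utrn (0.169), Dag1 (0.244) and Itgb1 (0.0956) ended, as did that of Itga7 with drug (0.0675). Without CD untreated replicate 1 alone the calls without drug of Col4a2 (0.07), Dag1 (0.0581), Itgb1 (0.116) and Lad1 (0.0953) ended, and that of Itga7 with drug (0.0516). Without replicate 2 of that group alone the calls without drug of Col4a2 (0.079), Dag1 (0.125), Itgb1 (0.0841) and Utrn (0.0796) ended, and without replicate 3 those of Dag1 (0.0839), Itgb1 (0.0592), Utrn (0.0665) and Lad1 (0.0737); Itga7 with drug did not pass without either (0.0541 and 0.0567). No gene of these lists passed for the drug or the interaction in edgeR.

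**Figure D4:**
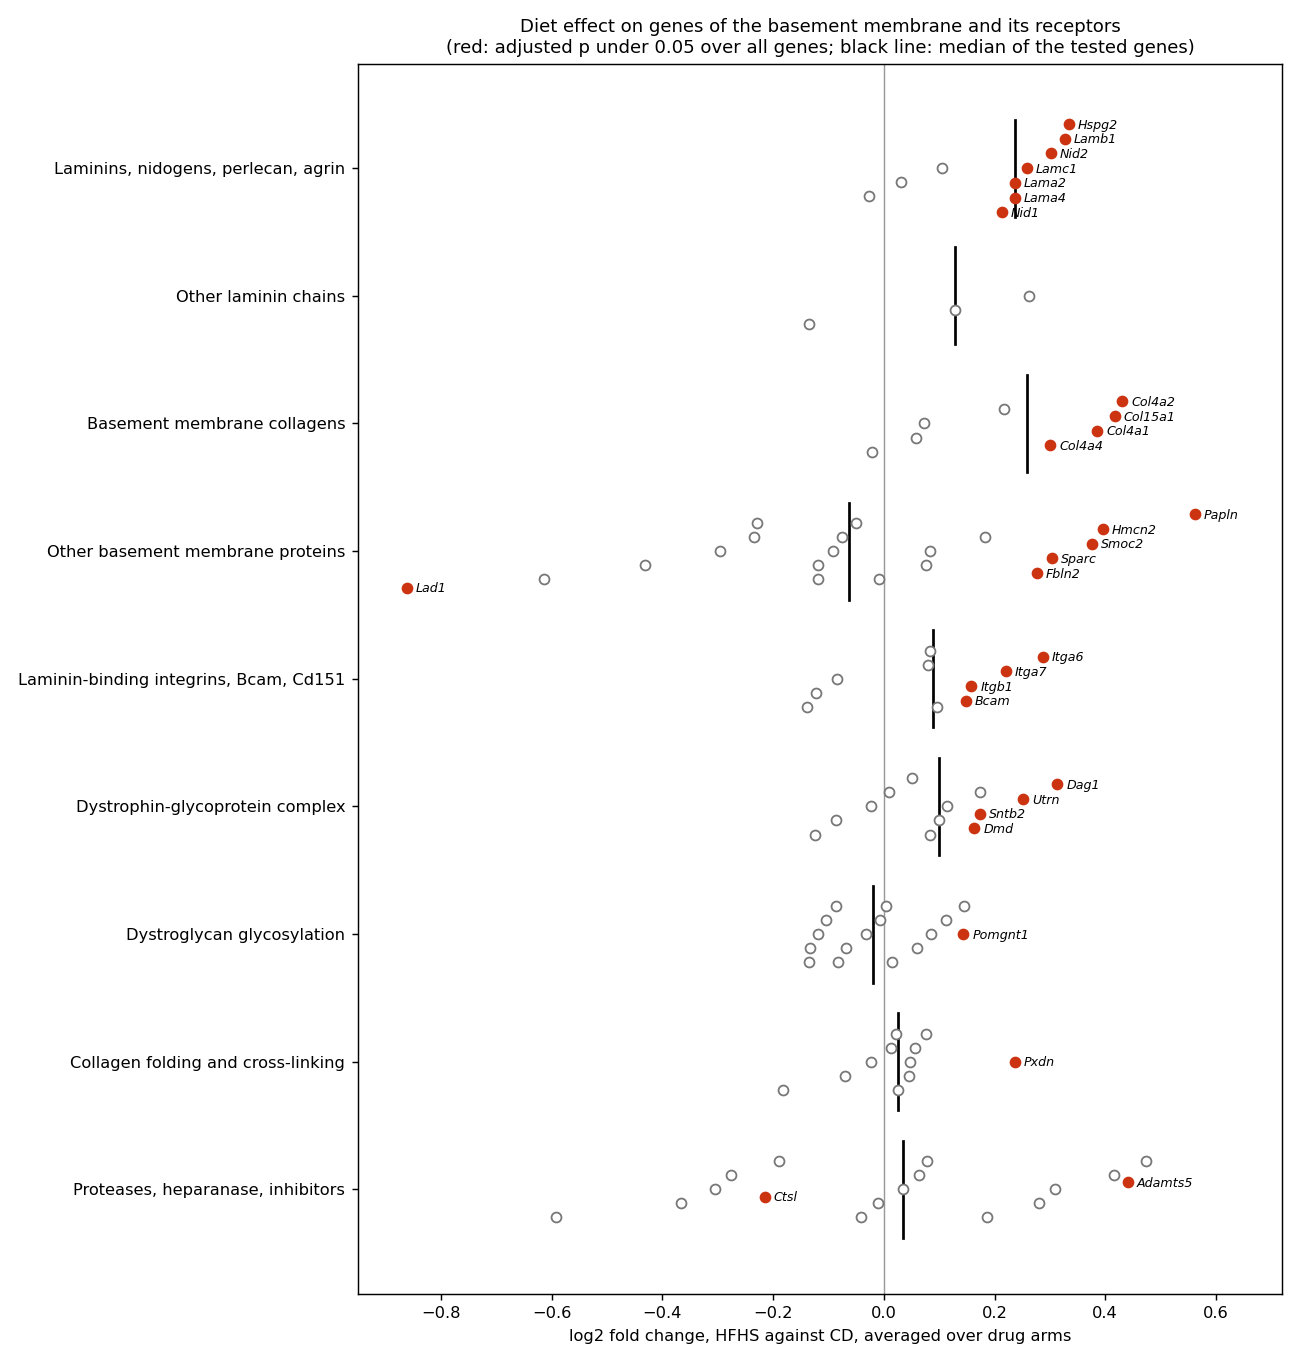
Each point is a tested gene, with its log2 fold change for HFHS against CD averaged over drug arms on the horizontal axis and its list on the vertical axis; red points have an adjusted p under 0.05 and black lines are list medians. The laminin and basement membrane genes and the basement membrane collagens have the highest medians, 0.24 and 0.26.

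Markers of the cells that make these proteins were measured alongside. Of 20 endothelial markers 5 rose with the diet (Cdh5, Kdr, Ptprb, Eng and Cd93) and 1, Aqp1, was lower, with a median of 0.12. Of all genes 6.59% passed as higher. In untreated animals the endothelial median was 0.19, with 3 called higher (1.45% of all genes). In drug-treated animals it was 0.068, with 0 called (2.15% of all genes passed as higher). The medians of the 10 laminin and basement membrane genes were 0.25 without and 0.23 with drug. The summed level of the endothelial markers ranged from 3361 to 3935 CPM in CD untreated, 3519 to 3990 in CD ertugliflozin, 3647 to 4746 in HFHS untreated and 3701 to 4198 CPM in HFHS ertugliflozin hearts. Of 12 mural cell markers 4 rose (Pdgfrb, Notch3, Vtn and Colec11; median 0.093), and their sums overlapped between the groups, 1883 to 2327 CPM in CD untreated and 2220 to 2470 CPM in HFHS untreated hearts. Of 16 fibroblast markers 1, Pdgfra, rose (median 0.051, with -0.071 in untreated and 0.17 in drug-treated animals). Of 12 ventricular cardiomyocyte markers 6 fell (Ckm, Myl2, Myl3, Pln, Tnni3 and Tnnt2), with a median of -0.14. The 12 markers summed to 109400 to 123500 CPM on CD and 99280 to 118700 CPM on HFHS. The valve markers had a median of -1.01 with 0 of 11 tested called, the 10 tested atrial markers had a median of -0.59 with 0 called, and 1 of 12 macrophage markers, Lyz2, fell. The valve median differed in sign between the drug arms. It was -2.89 in untreated animals, with 1 of 11 called lower (0.619% of all genes), and 0.40 in drug-treated animals, with 0 called. Without CD untreated replicates 2 and 3 together the calls of Eng (edgeR adjusted p = 0.0606), Pdgfrb (0.0598) and Lyz2 (0.143) ended, the last also without either of them alone (0.0675 and 0.0648). Of all 27 alternative fits, Lyz2 lost its call in 12, Aqp1, Eng and Pdgfrb in 3 each, and Pln in 2. The other marker calls named here held in every fit. The part of these markers in the rise of the laminins was not tested.

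Gene length also moved with the diet effect. The median averaged log2 fold change of all tested genes went from -0.070 in the shortest decile (up to 1.14 kb of annotated exon) to 0.059 in the longest (at least 9.54 kb), and the share called higher from 1.07% to 15.9%. The 10 genes are long: Lama2, Hspg2, Lama4, Lama5 and Lamb1 are in the longest decile and the shortest, Nid2 with 5.17 kb, is longer than 63.5% of the genes. A correction of each library for length and GC content, which was added after the data were seen, kept all 7 averaged calls; in untreated animals 2 of the 10 genes then passed, and in drug-treated animals 2. The corrected log2 fold changes were 0.23 for perlecan, 0.27 for Nid2, 0.27 for Lamb1, 0.20 for Lamc1, 0.18 for Nid1, 0.17 for Lama4 and 0.17 for Lama2. Agrn was then at 0.042, Lama5 at -0.065 and Lamb2 at -0.078. Among the other genes named here, the averaged calls of Col4a4, Col15a1, Hmcn2, Pxdn, Pomgnt1, Dmd, Sntb2, Pdgfrb, Lyz2 and Pln ended under this correction. The calls in drug-treated animals of Col4a4, Hmcn2, Smoc2, Itga7 and Utrn ended as well.

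**Figure D5:**
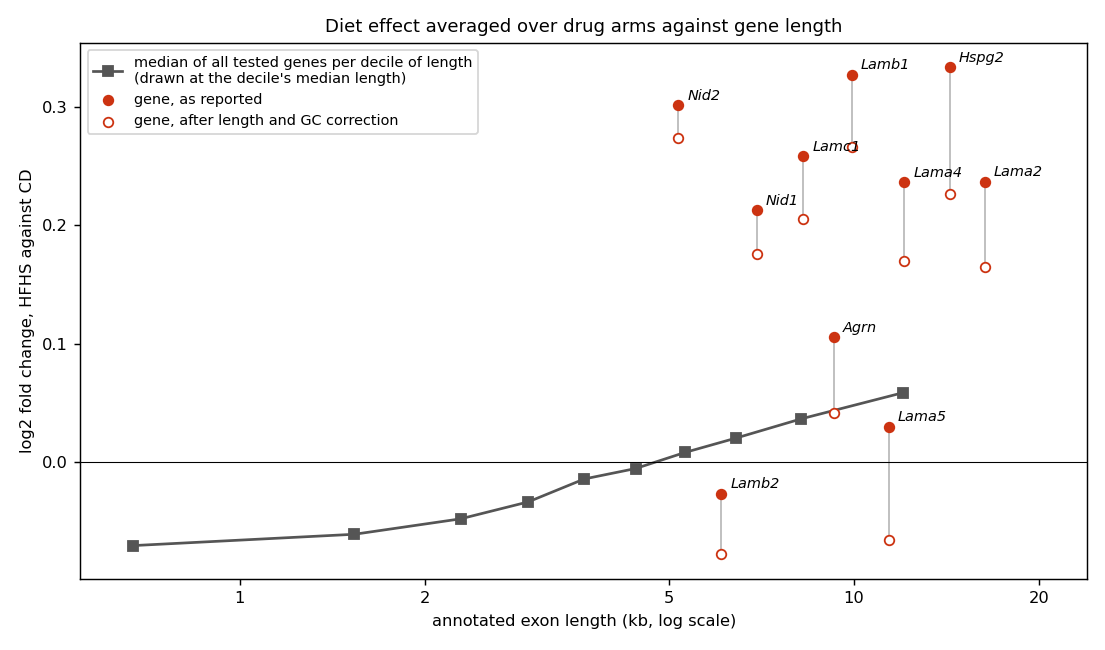
The horizontal axis is annotated exon length in kb on a log scale and the vertical axis the log2 fold change for HFHS against CD averaged over drug arms; squares are medians of all tested genes per decile of length, filled circles the 10 genes and open circles the same genes after length and GC correction. The 7 genes called higher lie above the trend before and after correction.

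The members varied together to different degrees. Over the 16 libraries the log2 CPM of perlecan had a Pearson r of 0.96 with the mean of the other 9 genes, and Lamc1, Lama2, Lama4, Nid1, Lamb1 and Nid2 had 0.92 to 0.75. The value was 0.28 for Agrn, -0.070 for Lama5 and -0.10 for Lamb2. Since the mean levels of most of these genes differed between diets, the same was computed from deviations from the group means. It was then 0.76 for perlecan, 0.66 for Lama4, 0.64 for Lamc1 and 0.26 to 0.45 for Lama2, Nid1, Lamb1 and Nid2, but 0.0044 for Lamb2, -0.32 for Agrn and -0.35 for Lama5. These are descriptions over libraries that also share depth and dissection.

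Of 12461 other genes ranked, those most like the mean of the 10 members over the 16 libraries were Efr3b (r = 0.95; 0.89 within groups), Adam10 (0.94; 0.77), Tfrc (0.93; 0.64), Kazn (0.91; 0.60) and Dysf (0.91; 0.49). Adam10 is a cell surface protease, Tfrc the transferrin receptor and Dysf (dysferlin) a protein of muscle membrane repair. Each was higher on HFHS, from 0.16 for Adam10 to 1.30 for Tfrc on the log2 scale (edgeR adjusted p from 3.82e-06 for Dysf to 0.00482 for Adam10). These genes were picked for likeness to a mean that was higher in every HFHS library than in every CD library. Their diet effects thus follow largely from the choice and are no separate result.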

How the data were processed

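RNA of left ventricles from 16 mice was sequenced from strand-marked, poly(A)-selected libraries, per the labels' protocols. The authors deposited a table of whole read counts per Ensembl gene, not normalized. Per the submitters' processing notes, reads were handled with FastQC 0.11.7, STAR 2.6.0c (build mm10), featureCounts of Subread 1.6.2 and DESeq2 1.22.1; the annotation and strand setting are not given in the sources used. A deposited table of regularized log2 values from the authors served only as an alternative input.

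Symbols (53669 of 53764 IDs), coordinates and exon lengths came from GENCODE M21 (GRCm38), promoter sequences from RefSeq (GRCm38.p6). The count test was edgeR 4.0.16 under R 4.3.3, with filterByExpr, TMM factors, 1 robust quasi-likelihood fit of the 4 group means over all 16 libraries, Benjamini-Hochberg adjustment over 15841 genes and a threshold of 0.05. Each SE was derived as the absolute log2 fold change over the root of F. CPM are counts scaled by total and TMM factor. Ratios of chains were tested by exact permutation within drug or diet strata, adjusted over 10 tests. Likeness used log2 CPM with a prior count of 2, among genes with a mean of at least 1 CPM.

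Members, gene lists, the averaged diet contrast and the left-out CD untreated libraries were chosen with earlier results of these data known. Genes named are all members, other laminin chains, basement membrane collagens, list genes past the threshold (up to 4 of smallest p per list and contrast), the 5 genes most like the members' mean and, beyond this rule, Sparc and the called cell markers; a listed gene is not reported here. Labels name each library by an animal of its own. Chi-square over its degrees of freedom was 3.23 to 16.3 between libraries of a group, more than counting noise alone gives. This check cannot tell animals apart, so taking each library as a replicate rests on the labels. Deviations of same-numbered libraries of different groups correlated at -0.24 to 0.31 (median 0.056, over 0.1 in 6 of 24 pairs). For libraries with other numbers the correlation was -0.26 to 0.27 (median -0.023, over 0.1 in 12 of 72 pairs). Same-numbered libraries were thus somewhat more alike by median. Since the labels give each library its own animal, the numbers were not taken to pair them. Whether same-numbered libraries shared handling was not tested. Alternatives were upper-quartile and RLE scaling, a filter of 1 CPM in 4 libraries or none, DESeq2 1.42.0, limma 3.58.1 (voom with sample weights; deposited log2 values), a replicate block, only the groups compared, leaving out libraries, log2 of CPM plus 1 for ratios, and, added after seeing the data, a lowess correction for length and GC (span 0.3). Scripts were tested on simulated data.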

Additional observations from a re-analysis of the deposited data

Results flagged for a closer look

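In 4 of 60 sets of 4 libraries a single library lay far from the other 3, where about 3 are expected by chance at 1 in 20. HFHS ertugliflozin replicate 4 had 139.5 CPM of Lama4, against 152 to 153 CPM in its group. CD ertugliflozin replicate 4 had a Lama2/Lama4 ratio of 1.64. CD untreated replicate 4, the library with the highest Lama5 level, had a Lama5/Lama4 ratio of 2.40 against 1.40 to 1.47 in its group. CD ertugliflozin replicate 3 had a Nid2/Nid1 ratio of 0.174.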

How the results depend on the processing

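The averaged diet effect gave 7 of 10 members in every alternative, and all 270 recomputed values of the 10 genes kept their side of the threshold, 5 of them, all of Lama5, with another sign. In the untreated animals 15 of 280 recomputed values lost and 22 gained significance, in the drug-treated animals 22 and 9 of 280, with 0 reversals. The 40 drug and interaction values passed in 0 of 1096 recomputations, and 70 of these, in 18 values, changed sign. Causes were not tested.

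Members called in untreated animals (3) became 5 without a filter, 7 with DESeq2, 6 with voom, 0 with only the groups compared, 1 without CD untreated replicates 2 and 3, and 0 to 5 when a library was left out. In drug-treated animals (4) they became 2 with the length and GC correction and 2 to 4 when a library was left out. With the replicate number as a block, which the design does not pair, 6 members passed in untreated animals, also 6 with the length and GC correction added, and Lama4 and Nid2 gained calls in drug-treated animals.

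All genes called in untreated animals (327) became 602 with DESeq2, 743 with voom, 136 with only the groups compared, 97 without CD untreated replicates 2 and 3, and 133 to 846 when a library was left out. In drug-treated animals (584) they became 891 with DESeq2 and 287 to 844 with a library left out. For the drug on CD (3) the counts were 10 with DESeq2, 1 with only the groups compared, 0 without CD untreated replicates 2 and 3, and 0 to 6 with a library left out. For the drug on HFHS (0) they were 0 to 1 with a library left out. For the averaged drug effect (0) they were 6 with DESeq2, 1 with the replicate block, alone or with the correction, and 0 to 1 with a library left out. For the interaction (3) they were 6 without a filter, 18 with DESeq2, 0 without CD untreated replicates 2 and 3, and 0 to 18 with a library left out. In fits with a library left out the ratio Agrn/Hspg2 differed between diets by -0.29 to -0.20 on the log2 scale and Lama5/Lama4 between drug arms by 0.090 to 0.22, which passed only without CD untreated replicate 4 (adjusted exact permutation p = 0.049).

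With 4 animals per group, changes of the size of Lama5's spread could not be resolved.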
